A study of Mus musculus with 4 samples.

Results

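T and NK cells of the mouse main olfactory epithelium are described here, in 95 of 41911 barcodes from 4 droplet libraries. A barcode was a member when it had at least 500 detected genes, at most 10% mitochondrial UMIs, at least 2 UMIs of Cd3d, Cd3e, Cd3g and Nkg7 in sum, at least 1 of Ptprc, none of Cd79a, at most 1 of C1qa, at most 15 of Omp and at most 30 of Cyp2g1. The members were thus chosen by measured UMIs of these genes; a UMI, or unique molecular identifier, is a tag that stands for a single RNA molecule. The libraries came from C57BL/6J mice of wild type genotype aged 3 months, 2 from females and 2 from males, with no treatment named. The tissue was dissociated with papain, and the chemistry reads the 5′ end of transcripts. Sex is the one label that differs between libraries, the labels do not say how many animals went into each, and p-values therefore measure the spread between these libraries.

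T cells recognise antigen through a receptor made of paired chains, alpha with beta or gamma with delta, which reaches the surface together with the CD3 proteins. The variable (V) segment that begins each chain is joined to the rest by DNA rearrangement as the cell develops. NK cells lack this receptor and CD3; they carry activating receptors that signal through the adaptors Tyrobp and Fcer1g, and, like CD8 T cells, they hold cytotoxic granules, of which Nkg7 is a membrane protein. In mucosal tissues both kinds of cell may stay resident, next to macrophages, dendritic cells and neutrophils.

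The gate rested on Cd3d, Cd3e, Cd3g, Nkg7 and Ptprc, so their values are a description and were not tested outside the comparison of sexes. Cd3d, Cd3e and Cd3g, the CD3 chains, had UMIs in 62, 71 and 72 of the 95 members, and 56 members had all 3. Nkg7 was seen in 44 members, 27 of them with CD3. Thus 51 members had CD3 without Nkg7, 27 had both and 17 had no CD3. Near the threshold, 11 members had exactly 2 UMIs of the gate genes and 13 barcodes that met all other limits had 1. A further 7 barcodes failed for lack of Ptprc and 8 for Omp or Cyp2g1.

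Members were shallower than the immune cells around them. Their median depth was 3506, 3904.5, 3072.5 and 2998 UMIs in female 1, female 2, male 1 and male 2, an order kept for all values below, against 5054 to 6168 UMIs in the other Ptprc-positive barcodes. Those comparison barcodes numbered 145, 155, 145 and 154, had at least 1 Ptprc UMI under the same Omp and Cyp2g1 limits, and are called the other barcodes. The libraries held 100725429 to 111577458 UMIs in all, and 39715 barcodes passed the gene and mitochondrial limits. Library pairs shared 136 to 172 barcode sequences, none of which was a member in both. The macrophage genes C1qb, C1qc, Csf1r, Adgre1, Fcgr1 and Mrc1 were at 0 in members, as were the B cell genes Ms4a1 and Pax5.

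The label fitted most but not all of the 95 barcodes. In 5 of them, called mixed below, at least 5 UMIs came from the neutrophil, the mast cell and basophil or the macrophage list, from Krt5, Krt14 and Trp63, or from Gap43 and Gng8: 1 of female 2 held 462 UMIs of neutrophil genes beside 2 of Cd3d, 1 of male 2 held 112 of mast cell and basophil genes beside 2 of Nkg7, 1 of female 2 held 31 of basal cell keratin genes and Trp63, and 1 of female 1 and 1 of female 2 held 16 and 51 of Gap43 and Gng8, genes of immature olfactory neurons. They were deep, with 4895 to 19564 UMIs. Omp and Cyp2g1, which the gate limits, did not enter this count; 2 other members held at least 5 UMIs of Omp, the most being 11. Droplets with 2 cells were otherwise not removed.

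Cd3d and Cd3g lie head to head on chromosome 9 and read away from each other, with starts 1355 bases apart, and are shown because their UMIs chose most members and occurred together. The 250 bases before each start are given 5′ to 3′ on the strand of the gene, from RefSeq on GRCm38.p6, with matches to ACTTCC or its reverse complement GGAAGT, the core of an ETS motif, in capitals.
Cd3d, chr9:44981536-44981785, plus strand: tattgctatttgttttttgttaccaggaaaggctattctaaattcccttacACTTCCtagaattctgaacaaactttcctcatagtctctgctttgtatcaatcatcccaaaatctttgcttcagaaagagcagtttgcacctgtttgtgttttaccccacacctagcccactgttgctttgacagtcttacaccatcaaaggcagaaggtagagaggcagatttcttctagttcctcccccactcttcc
Cd3g, chr9:44980432-44980681, minus strand: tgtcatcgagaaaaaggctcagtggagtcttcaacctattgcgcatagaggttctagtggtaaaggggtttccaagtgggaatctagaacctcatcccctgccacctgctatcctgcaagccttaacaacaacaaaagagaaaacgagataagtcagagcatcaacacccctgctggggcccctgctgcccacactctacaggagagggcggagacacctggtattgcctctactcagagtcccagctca
The Cd3d window held 1 match and the Cd3g window none, while 19.7% of 32851 RefSeq windows of this length held at least 1. A RUNX motif (TGTGGT or ACCACA) was in neither window and in 14.0% of all. A match is a description of the letters and not of binding.

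Members were rare in every library and rarest in male 1. They numbered 31, 30, 8 and 26, which is 0.303%, 0.307%, 0.0828% and 0.258% of the barcodes kept. Male 1, with an exact 95% binomial interval of 0.0357% to 0.163%, lay below the intervals of the other 3 libraries, the lowest of which began at 0.169% in male 2. The mean was 0.305% ± 0.00280 (SD, n = 2) in females and 0.171% ± 0.124 (SD, n = 2) in males, with both males below both females. The exact two-sided permutation test gave p = 0.333, the smallest that 2 against 2 allows, so it could not have passed at 0.05. Without male 1 the difference, male minus female, changed from -0.135 to -0.0471 percentage points, and without male 2 to -0.223. Counts of the other barcodes were even, 150 ± 7.07 in females and 149.5 ± 6.36 in males (SD, n = 2 each; exact permutation p = 1). As a share of all Ptprc-positive barcodes, members made up 17.6%, 16.2%, 5.23% and 14.4%. Intervals cover counting error only.

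**Figure D1:**
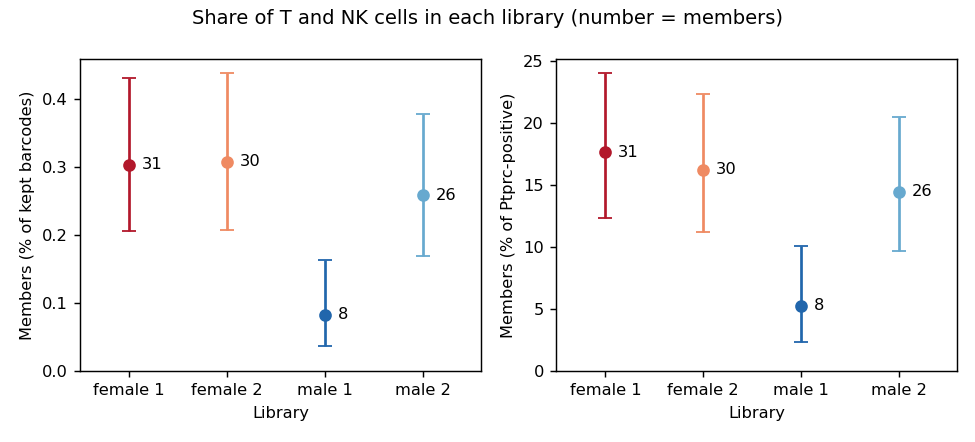
Members as a percentage of the barcodes kept (left) and of Ptprc-positive barcodes (right) in each library. Points are shares, bars are exact 95% binomial intervals and numbers are member counts: male 1, with 8 members, lies below the other 3 libraries on both scales.

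The constant parts of the T cell receptor were sparsely read and its V segments often. Cd247, the zeta chain that carries the signal of the CD3 complex (chr1:165788681-165877277 on GRCm38, GENCODE M21), had 193, 126, 209 and 216 CPM (summed UMIs scaled to a total of 1e+06) in members and 1.05, 1.89, 0 and 1.01 CPM in the other barcodes. All 4 member sums stood above all 4 comparison sums (log2 fold change 6.91, SE 0.49, adjusted p = 3.91e-11, edgeR quasi-likelihood test with the library as block). Trbc2, a constant segment of the beta chain, had 56 UMIs in members against 2 in the other barcodes, a ratio of CPM of 274 with a 95% counting interval of 72.5 to 2322 (adjusted p = 2.47e-10). Trac, the alpha constant segment and a marker of the label, was seen in 26 members, all with CD3, with 17, 11, 0 and 8 UMIs; at 0 in male 1, it did not pass the filter on low counts and has no test.

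A V segment was found in most members with CD3 and in almost none of the background. Beta segments (Trbv) had UMIs in 53 of 78 members with CD3 (67.9%, exact 95% binomial interval 56.4% to 78.1%) and in none of the 17 without CD3, a count that allows up to 17.6%. Alpha segments (Trav) had UMIs in 48 of the 78 (61.5%, interval 49.8% to 72.3%) and in 2 of the 17. As background, 284 barcodes with at least 2 C1qa UMIs, whose median depth was 6779 UMIs against 3454 in members, held a Trav UMI in 1 case and a Trbv UMI in none (up to 1.06%). They are part of the 599 other barcodes, of which 8 held a Trav, 7 a Trbv, 7 a delta (Trdv) and 3 a gamma (Trgv) UMI. Of the 53 barcodes with Trbv, 41 showed 1 segment, 11 showed 2 and 1 showed 3 or more. Both an alpha and a beta segment were seen in 38 members.

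Use of beta segments was spread over 17 of the 35 Trbv genes in the table. Trbv19 (chr6:41178375-41179048) was found in the most members, 12, divided as 3, 2, 2 and 5 over the libraries, and 1 member held 35.9% of its 64 UMIs. Trbv1 and Trbv13-3 followed with 7 members each, and Trbv3, Trbv4 and Trbv13-2 with 5 each. Among alpha segments, Trav1 was seen in 6 members, Trav7-5 in 5, and Trav10, Trav7-4, Trav3-3 and Trav13-1 in 4 each. Near-identical Trav copies can share reads, so alpha assignments are less certain.

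**Figure D2:**
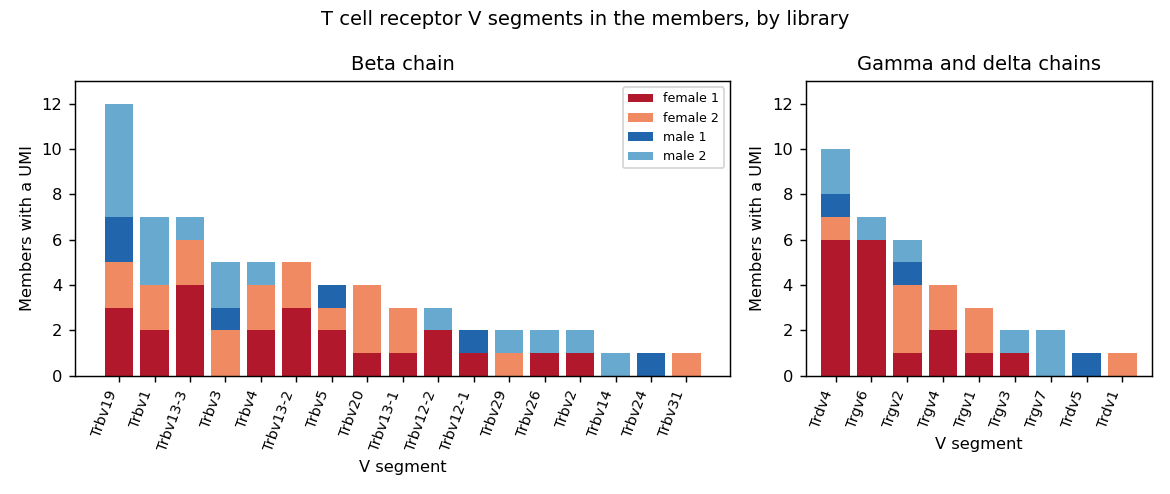
Members with at least 1 UMI of each beta segment (left) and of each gamma or delta segment (right), stacked by library. Trbv19 was seen in 12 members from all 4 libraries, while 6 of the 7 members with Trgv6 came from female 1.

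Trgv6, seen with Trdv4, marked a small and compact set of members, while other gamma segments also occurred beside alpha and beta segments. Trdv4 (delta; chr14:54074905-54075515) had UMIs in 10 members and Trgv6 (gamma; chr13:19190356-19190929) in 7. All 7 members with Trgv6 also carried Trdv4, Cd163l1, a scavenger receptor of the gamma-delta lineage, and Il7r, the receptor of the survival cytokine IL-7. None of the 7 had a UMI of Nkg7, a Trav segment, Cd4, Cd8a, Cd8b1, Foxp3 or Ifng, and 1 had a Trbv UMI. Beta constant segments were seen among the 7 as well. In female 1, 1 member held 1 UMI of Trbc1 and another held 3 of Trbc2, and the member of male 2 held 1 of Trbc1. Il23r, the receptor of IL-23, was seen in 5 of them and Il17a, the cytokine IL-17A, in 3. Of these 7 members, 6 came from female 1, 1 from male 2, and none from female 2 or male 1. A gamma segment of any kind was seen in 19 members. Trgv2 was seen in 6 members, Trgv4 in 4, Trgv1 in 3, and Trgv3 and Trgv7 in 2 each. Trgv2, Trgv4 and Trgv1 each occurred in members that also held a Trav and a Trbv segment. In male 1, a member without Trav or Trbv held Trdv5, Trdv4 and Trgv2 with 11 UMIs of Nkg7 and 3 of Ifng.

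Il17a was not limited to members with gamma or delta segments. It was seen in 11 members, 6, 3, 0 and 2 by library, with 57, 16, 0 and 63 UMIs, and 1 member held 36.8% of these. All 11 had CD3 and Il7r, none had Nkg7, 8 had a Trbv segment and 4 had Cd163l1. Ifng, interferon gamma, was seen in 19 members, 3, 9, 3 and 4 by library, of which 12 had Nkg7. A single member had both Il17a and Ifng, and it was the deepest of the 95 and the one with basal cell genes.

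Members with CD8, CD4 or Foxp3 UMIs differed in the genes seen beside them, but these groups overlapped. Cd8a or Cd8b1, the chains of the CD8 co-receptor, occurred in 9 members (4, 2, 1 and 2 by library), all of which had a Trbv segment; 8 had Nkg7 and 8 had Ccl5, a chemokine of cytotoxic cells. Cd4, the other co-receptor, was seen in 26 members, all with CD3. Its share, 27.4%, was no higher than the 27.8% of the deeper C1qa barcodes, macrophages being able to express Cd4, and was not read as a lineage call. Foxp3, the transcription factor of regulatory T cells, was seen in 17 members (7, 5, 2 and 3), 15 of them with Ctla4, an inhibitory receptor that binds the ligands of CD28, and 3 with Nkg7. Of the 17 members with Foxp3, 7 had Cd4 and 1 had Cd8a or Cd8b1, and 2 of the 9 members with CD8 UMIs had Cd4. In the C1qa barcodes Foxp3 was seen in 1 of 284. After thinning each barcode to 1000 UMIs, the share of members with a UMI fell from 17.9% to 12.6% for Foxp3, from 27.4% to 16.8% for Cd4, and from 65.3% to 45.3% for Cd3d, so absence of a gene in a member is weak evidence at this depth.

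**Figure D3:**
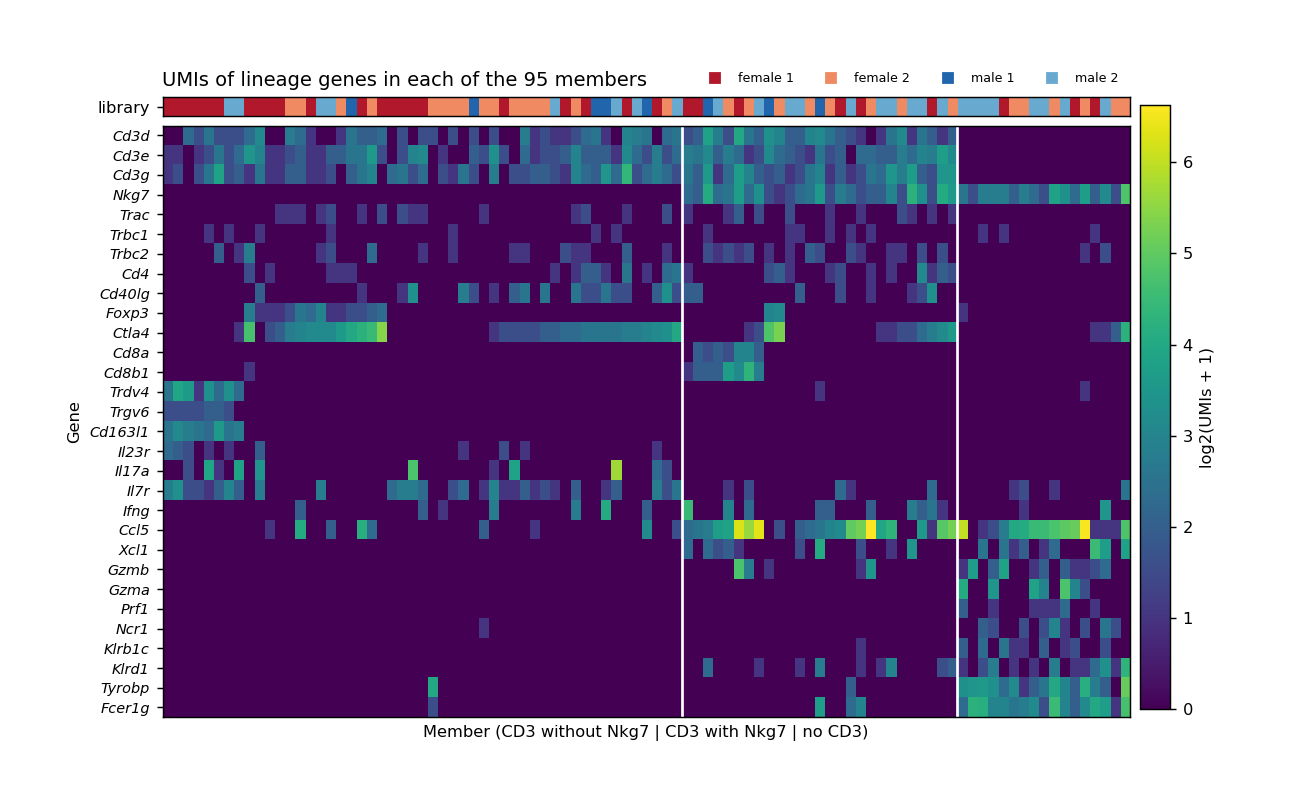
UMIs, as log2(UMIs + 1), of 30 lineage genes (rows) in each of the 95 members (columns), with the library as a colour bar; white lines separate members with CD3 but no Nkg7 (51), with both (27) and without CD3 (17). All UMIs of Trgv6 and Cd163l1, and those of Trdv4 in 8 of its 10 members, fall on the 8 columns at the left, Cd8a or Cd8b1 on 8 columns with Nkg7 and 1 without, and Tyrobp and Fcer1g mostly on the columns without CD3.

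Set against the other barcodes, members were higher in T cell and cytotoxic genes and lower in genes of myeloid cells. Of 7155 genes tested, 663 (9.27%) were higher and 1163 (16.3%) lower in members at an adjusted p under 0.05. Without the 5 barcodes that carried another cell type, 764 were higher and 1317 lower. These tests concern barcodes that CD3 and Nkg7 UMIs had chosen, and the filter on low counts passes many lymphocyte genes only through the members, so they describe the gated barcodes and are no independent support for the gate. In sums, more cells with a gene and more RNA per cell cannot be told apart. The median log2 fold change over all genes tested was -0.07.

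All 15 tested genes of the 17 in the T cell signalling and surface list were higher, with a median log2 fold change of 5.52. Lck, the kinase that starts receptor signalling, had 377, 415, 745 and 475 CPM in members against 1.05, 5.67, 3.50 and 4.04 CPM (log2 fold change 6.74, SE 0.34, adjusted p = 7.34e-14). Lat, the adaptor downstream of it, had 529.5, 541, 447 and 324 CPM against 2.11, 8.50, 4.66 and 10.1 CPM (log2 fold change 5.87, SE 0.35, adjusted p = 1.38e-12). Thy1, a surface glycoprotein of T cells, was also higher (log2 fold change 6.35, SE 0.30, adjusted p = 1.89e-14), with its highest member sum in male 1. The smallest increases of the list were those of Fyn, a kinase used by many cell types (1.49), and Bcl11b, a T lineage transcription factor (1.96). Themis and Tcf7 did not pass the filter and had 5 and 44 UMIs in members.

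The 8 genes of the CD4 and regulatory list were higher as well, with a median of 4.84. Ctla4 stood at 1043, 991, 1758 and 701 CPM against 2.11, 26.5, 0 and 28.3 CPM (log2 fold change 6.03, SE 0.47, adjusted p = 2.2e-10) and was seen in 49 members. Foxp3 had 56 UMIs in members against 3 in the other barcodes, a ratio of CPM of 183 with a 95% counting interval of 59.5 to 914 (adjusted p = 2.48e-10). Cd40lg, which helps B cells and dendritic cells, rose by a log2 fold change of 7.27, and Tnfrsf4 (OX40), a costimulatory receptor, by 5.71. Cd4 showed the smallest change (log2 fold change 1.34, SE 0.33, adjusted p = 0.00317). Izumo1r (folate receptor 4), found on regulatory T cells, had 48 UMIs in 22 members and none in the other barcodes, and was at least 157-fold higher when 3 UMIs over the whole comparison class are taken as the limit; Trbv19, also at 0 there, was at least 209-fold higher on the same reckoning.

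Inhibitory receptors were higher in 5 of 6 cases. Pdcd1 (PD-1) had 441, 408, 596 and 453 CPM against 5.27, 6.61, 3.50 and 9.09 CPM (log2 fold change 5.93, SE 0.31, adjusted p = 1.82e-13), and Tigit rose by 7.15 on the log2 scale. Cd160, a receptor of cytotoxic cells, was at 0 in the other barcodes and at least 85.0-fold higher in members, where 1 barcode held 38.5% of its 26 UMIs. Lag3 and Cd200r1 gave log2 fold changes of 1.26 and 1.51, while Havcr2 (TIM-3), also expressed by myeloid cells, was lower (log2 fold change -1.56, SE 0.44, adjusted p = 0.00936). These last 3 calls hung on single libraries: Lag3 was lost without male 2 (adjusted p = 0.445), Cd200r1 without female 1, male 1 or male 2 (0.0756 to 0.241) and Havcr2 without female 1 (0.0873).

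Cytotoxic genes divided. Of 8 tested genes outside the gate, 6 were higher and Lamp1, a lysosomal protein of most cells, was lower. Ctsw, a protease of cytotoxic lymphocytes, had 425, 689, 1013 and 593 CPM against 4.22, 7.56, 3.50 and 1.01 CPM (log2 fold change 7.0, SE 0.33, adjusted p = 1.89e-14). Gzmb, granzyme B, had 345, 119, 29.8 and 291 CPM against 2.11, 2.83, 1.17 and 0 CPM (log2 fold change 6.57, SE 0.49, adjusted p = 1.16e-10), lowest in male 1 where it had 1 UMI. Its UMIs were gathered in few barcodes. In male 2, the barcode with mast cell and basophil genes held 12 of them, and in female 1 a barcode with CD8 UMIs held 26. Fasl, Cst7, Serpinb6b and Serpinb9 were higher by 5.98, 3.07, 1.78 and 1.14, the last of which was not called without female 1 (adjusted p = 0.411), without male 2 (0.145) or with DESeq2 (0.465). Gzmk and Gzmm, other granzymes, had no UMI in any member, a count that allows up to 3.16% of members with one. Prf1 (perforin) and Gzma were each seen in 7 members and did not pass the filter.

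The NK list had 8 tested genes of 21, 5 higher and 2 lower. Il2rb, the shared receptor chain for IL-2 and IL-15, had 690.0, 815, 685 and 960.0 CPM against 13.7, 16.1, 30.3 and 3.03 CPM (log2 fold change 5.51, SE 0.34, adjusted p = 3.78e-12) and was seen in 75 members. Klrd1, Klrk1, Klra7 and Txk were also higher, Klrk1 not without male 2 (adjusted p = 0.294). Tyrobp and Fcer1g, adaptors that macrophages use too, were lower (-3.21 and -2.20), with UMIs in 18 and 21 members.

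Among secreted proteins, 6 of 10 tested genes were higher and 3 lower. Ifng had 105 UMIs in members against 2 in the other barcodes, a ratio of CPM of 515 with a 95% counting interval of 139 to 4305 (adjusted p = 4.82e-13), with member sums of 233, 239, 655 and 216 CPM. Xcl1, a chemokine for cross-presenting dendritic cells, had 273, 169, 596 and 356 CPM in members (log2 fold change 6.82, SE 0.43, adjusted p = 4.27e-12). Ccl5 had 1524, 2895, 566 and 3732 CPM against 640.1, 989, 161 and 156 CPM (log2 fold change 2.02, SE 0.35, adjusted p = 6.01e-05); the member sum of male 1 lay below 2 of the comparison sums, so the groups overlapped. Ltb, Tnfsf8 and Tnfsf11 (RANKL) were higher by 3.8, 4.21 and 5.56. Ccl3 and Ccl4, chemokines also made by macrophages, were lower, with log2 fold changes of -4.79 and -2.95. Tgfb1, an immunosuppressive cytokine, was lower too (-0.60), but not without female 1, female 2 or male 1 (adjusted p 0.0861 to 0.208) or without the mixed barcodes (0.0728). Tnf did not pass the test (log2 fold change -0.39, SE 0.32, adjusted p = 0.449).

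**Figure D4:**
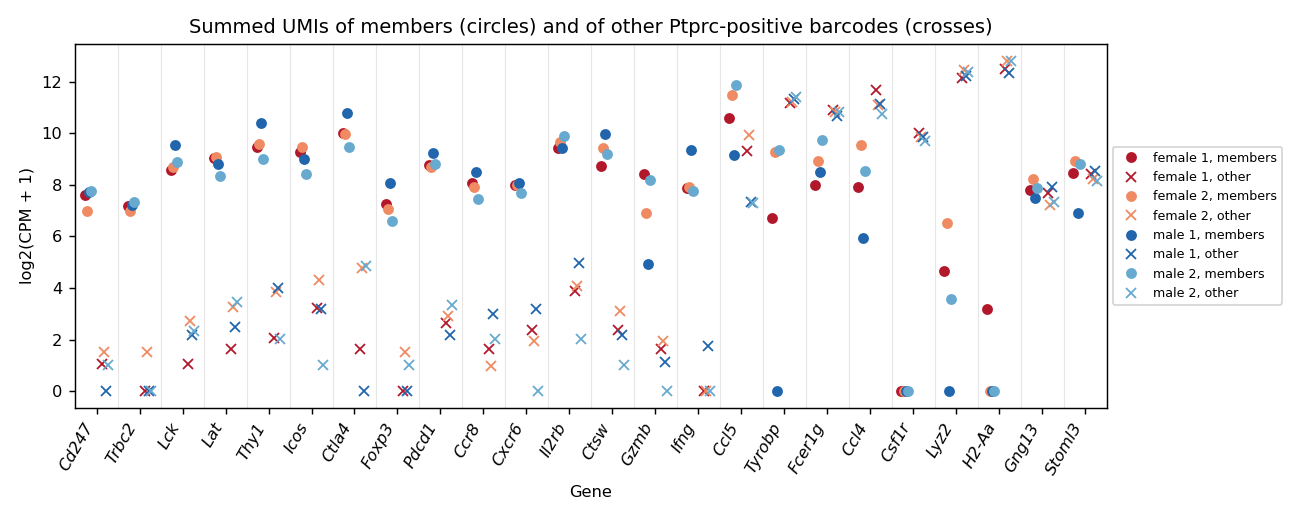
log2(CPM + 1) of 24 genes in the summed members (circles) and the summed other Ptprc-positive barcodes (crosses) of each library. T cell genes on the left separate the classes in all 4 libraries, Csf1r and H2-Aa separate them in the opposite direction, and the neuronal genes Gng13 and Stoml3 at the right overlap.

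Genes of tissue residency were mixed. Cxcr6, a homing receptor of resident T cells, had 257, 253, 268 and 205 CPM against 4.22, 2.83, 8.16 and 0 CPM (log2 fold change 5.82, SE 0.42, adjusted p = 4.59e-11), and Cd69, which blocks exit from tissue, and Itga1 were higher by 2.98 and 3.69. Prdm1 was lower (-1.62), and Itgae, the integrin that binds E-cadherin, gave 1.10 with an adjusted p of 0.0501. In the recirculation list, Il7r was higher (log2 fold change 2.73, SE 0.37, adjusted p = 2.15e-06), Ccr7 and Klf2, genes of cells that travel through lymph nodes, were lower (-0.97 and -1.70; Ccr7 had an adjusted p of 0.0555 without the mixed barcodes, and gave -0.22 with an adjusted p of 0.638 against all other Ptprc-positive barcodes), and S1pr1 and Klf3 did not pass. Among chemokine receptors, Ccr8 (6.06) and Cxcr3 (4.11) were higher and Cxcr4 and Cx3cr1 lower. Without female 1 the call of Cxcr4 was lost (adjusted p = 0.0673).

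Type 2 and 3 innate lymphoid genes gave 3 higher and 1 lower of 4 tested. Rora, a transcription factor also of T cells, rose by 2.87, Gata3 by 2.48 and Areg (amphiregulin) by 2.13, while Kit was lower (-1.89). With DESeq2 the adjusted p was 0.0536 for Areg and 0.0539 for Kit. Il5, Il22 and Arg1 had no UMI in members and Il13 had 4, all in the barcode with mast cell and basophil genes.

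Gimap7, a GTPase of lymphocytes, was among the 12 largest increases, with 45 UMIs in members against 1 in the other barcodes, a ratio of CPM of 441 with a 95% counting interval of 75.2 to 17806. Pglyrp2, a peptidoglycan amidase, was another, with 27 UMIs in members against 1 in the other barcodes, a ratio of CPM of 265 with a 95% counting interval of 43.6 to 10837. Immediate early and heat shock genes, which dissociation can raise, were lower in 5 of 13 cases (Fos, Fosb, Jun, Jund and Hspa1a), and Junb was higher (log2 fold change 0.64, SE 0.17, adjusted p = 0.00591); the call of Junb was lost without female 1 or male 2 (adjusted p = 0.0513 and 0.116) and that of Jund without female 2 or male 1 (0.0590 and 0.0607). Of the cell cycle list, 2 of 5 tested genes were higher, Tyms and Rrm2; the 5 mixed barcodes held 7 of the 19 and 9 of the 18 member UMIs of these genes, and without those barcodes neither gene passed the filter on low counts. Rrm2 was not called without female 1 (adjusted p = 0.150), nor Tyms without female 2 or male 2 (0.0580 and 0.106). Isg15 and Ifi27l2a, interferon response genes, were higher by 1.03 and 0.78, and Bst2 was lower (-2.53). Isg15 lost its call without female 1 (adjusted p = 0.0780), and Ifi27l2a without female 1 or female 2 (0.250 and 0.585).

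Decreases were led by antigen presentation and macrophage genes. H2-Eb1, a class II chain, had 22581 UMIs in the other barcodes and none in members, at least 768-fold lower with the limit of 3 UMIs over the members. The complement genes C1qb and C1qc were at least 390.3-fold and 285-fold lower, Csf1r, the receptor of macrophage growth factor, at least 121-fold, and Ms4a7, Ly86 and Wfdc17 at least 84.9-fold, 78.5-fold and 73.9-fold. H2-Aa, another class II chain, had 1 UMI in members against 24586. All 9 tested macrophage genes, 5 of 5 neutrophil genes and 4 of 4 dendritic and class II genes were lower, Retnlg not without male 1 (adjusted p = 0.158).

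RNA of the surrounding epithelium was present in both classes. None of the 8 tested olfactory sensory neuron genes differed: Gng13, a G protein subunit of these neurons, had 225, 302, 179 and 237 CPM in members and 207, 148, 241 and 161 CPM in the other barcodes (log2 fold change 0.20, SE 0.25, adjusted p = 0.626). The summed neuron list ranged from 894 to 1911 CPM over the member sums and from 991 to 1228 CPM over the others. Of sustentacular (supporting cell) genes, Cyp2a5 and Muc2 were lower in members (-1.45 and -1.82); Cyp2a5 was not when Omp and Cyp2g1 were held to at most 2 UMIs (adjusted p = 0.364), nor Muc2 without female 1 (0.0758). Their part in the results was not tested.

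Several of these calls rested on the choice of comparison barcodes or tool. When the Omp and Cyp2g1 limits on the comparison barcodes were dropped, Kit, Prdm1, Cxcr4 and Havcr2 were no longer called (adjusted p 0.0844 to 0.153), nor was Ccr7. With comparison barcodes of at least 2 Ptprc UMIs, Klrk1, Serpinb9, Lag3, Ifi27l2a, Retnlg and Muc2 were not called (adjusted p 0.0546 to 0.239). With DESeq2, Klrk1, Lag3, Cd200r1, Tgfb1, Junb, Tyms, Rrm2 and Ifi27l2a were not called either (adjusted p 0.0528 to 0.406).

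Members without CD3 differed from those with CD3 in genes of NK cells. They numbered 3, 6, 0 and 8 by library, so male 1 gave no pair. Fcer1g was seen in all 17, Tyrobp in 16, and a receptor of the NK list (Ncr1 or a Klr gene) in 16. Of the 78 members with CD3, Fcer1g was seen in 4 and Tyrobp in 2. Klr genes were not confined to members without CD3. Klrd1 had 1, 3, 10 and 12 UMIs with CD3, against 5, 28 and 19 without it in female 1, female 2 and male 2. A UMI of Trac, Trbc1 or Trbc2 was seen in 56 of all 95 members, 51 of them with CD3. Ncr1 (NKp46) and Klrb1c (NK1.1) were each seen in 9 of the 17 and in 1 of the 78 with CD3, and Gzma and Prf1 each in 7 of the 17 and in none of the 78, which allows up to 3.85%. Of 647 genes tested, 28 (4.33%) passed, 10 (1.55%) higher and 18 (2.78%) lower without CD3. The count was 13 without female 1, 48 without female 2 and 63 without male 2. Without the 5 mixed barcodes, 2 of which had no CD3, 18 were higher and 19 lower. This split follows the gate, which asks barcodes without CD3 for at least 2 UMIs of Nkg7, so genes that go with Nkg7 or with CD3 had to differ.

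The adaptors Fcer1g and Tyrobp and 1 receptor of NK cells, Klrb1b, led the increases; the adaptors were the only called genes of the 4 tested in the NK list. Fcer1g (chr1:171229572-171234365) had 2236, 1710.4 and 1989 CPM in the members without CD3 of female 1, female 2 and male 2, against 61.7, 19.4, 357 and 72.7 CPM in those with CD3 of the 4 libraries (log2 fold change 5.35, SE 0.45, adjusted p = 0.00103). Tyrobp had 1163, 1889 and 1511 CPM against 0, 145, 0 and 54.6 CPM (log2 fold change 4.75, SE 0.66, adjusted p = 0.0102). All 15 Tyrobp UMIs behind its highest value with CD3, in female 2, lay in the barcode with neutrophil genes. In male 2 without CD3, the barcode with mast cell and basophil genes held 18 of 75 Fcer1g and 10 of 57 Tyrobp UMIs. Klrb1b, an inhibitory receptor of NK cells, was higher by 5.90 on the log2 scale with an adjusted p of 0.00475. The transcription factor Irf8 was higher by 4.62, the IL-12 receptor chain Il12rb2 by 3.56 and the granzyme inhibitor Serpinb6b by 3.12. Bcl2l11 (BIM), which promotes cell death, was higher by 2.48 and Ugcg, an enzyme of glycolipid synthesis, by 2.40. Rpl10-ps3, annotated as protein coding in GENCODE M21, was higher by 0.97. Ctsw was higher by 1.56 with an adjusted p of 0.0426. With DESeq2, 8 of the genes named here were not called: Bcl2l11, Ugcg, Ctsw, Rpl10-ps3, Nfkbid, Cd2, Lat and Rora (adjusted p 0.0581 to 0.156). Without female 1, which held 3 of the 17 barcodes, 15 of the 28 genes lost their call, 12 of them named here (adjusted p 0.0504 to 0.488): Klrb1b, Il12rb2, Serpinb6b, Bcl2l11, Rpl10-ps3 and Ctsw among the increases, and Tnfsf11, Cd40lg, Nfkbid, Cd2, Lat and Rora among the decreases.

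Costimulatory and T cell surface genes led the decreases. Tnfrsf4 had 388, 543, 1221 and 873 CPM with CD3 and no UMI without it (at least 18.2-fold lower, limit 3 UMIs over the subset; adjusted p = 0.0136). Also at 0 without CD3 were Pdcd1, Ifi27l2a, Tnfsf11, the survival gene Bcl2a1d, the surface receptor Cd5 and Cd40lg, at least 16.8-, 16.6-, 12.9-, 12-, 9.62- and 8.85-fold lower. Gadd45b, a stress response gene, fell from 1416 ± 316 CPM (SD, n = 4) with CD3 to 103 ± 67.1 CPM (SD, n = 3) without (log2 fold change -4.12, SE 0.44, adjusted p = 0.00295). Icos, a costimulatory receptor, fell by 3.94 on the log2 scale, Nfkbid, a regulator of NF-kappaB, fell by 3.48, Thy1 fell by 3.15 and Cd2, an adhesion receptor, fell by 3.05. Lat and Rora gave -2.43 and -3.02. Without female 2, Cd2, Lat and Nfkbid were not called (adjusted p 0.0755 to 0.103), nor was Cd2 without the mixed barcodes (0.0609). Klrd1 and Xcl1 gave 3.10 and 3.30 with adjusted p of 0.0569 and 0.0582. Lck did not pass (log2 fold change -0.75, SE 0.47, adjusted p = 0.525).

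**Figure D5:**
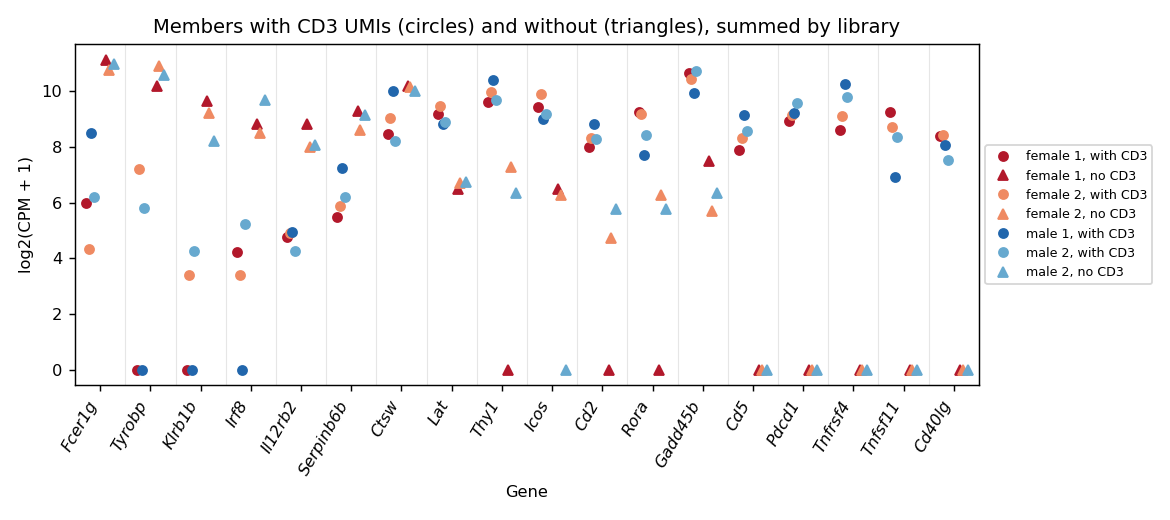
log2(CPM + 1) of 18 genes in members with CD3 UMIs (circles, 4 libraries) and without (triangles, 3 libraries; male 1 had none). Fcer1g and Tyrobp lie higher without CD3 in each of the 3 libraries, and Cd5, Pdcd1, Tnfrsf4, Tnfsf11 and Cd40lg lie at 0 there.

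No gene passed the test between male and female members, but this count depended on single libraries. Of 2088 genes tested, 0 (0%) passed with edgeR, 128 had an unadjusted p under 0.05 and DESeq2 called 1, Map1b. Without female 1, female 2 or male 1, 40, 19 and 65 genes passed, and 0 without male 2; a fit that leaves 1 library in a sex assumes it varies like the other sex. No gene of any marker list passed. As no gene passed, the 10 with the lowest p-values are named. The first were Map1b, a neuronal microtubule protein, with 59, 142, 2 and 6 UMIs (log2 fold change -3.53, SE 0.56, adjusted p = 0.139), and Areg, with 42, 80, 1 and 5 UMIs (log2 fold change -3.24, SE 0.55, adjusted p = 0.139). One member held 34.9% of the Map1b UMIs, and the 5 mixed barcodes held 149 of 209; without them Map1b gave -1.77 with an adjusted p of 0.678, and Ncam1, Cystm1, Homer2 and Slc6a6 did not pass the filter on low counts. Gzmc (granzyme C) had 45, 30, 0 and 3 UMIs (-3.53) and Tnf 74, 39, 1 and 6 UMIs (-2.96). Of the Gzmc UMIs, 34 lay in 1 member of female 1, and 12 and 16 in members of female 2. These members had no CD3, a class that male 1 lacked. Cystm1, Tmem176a, Ncam1, Homer2 and Slc6a6 were also fewer in males and Cxcl2, a neutrophil chemokine, more numerous, with 113 of its 136 UMIs in the male 2 barcode that held mast cell and basophil genes. With 8 members in male 1 these sums held 33569 to 142320 UMIs.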

How the data were processed

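Gene by barcode matrices of 4 libraries were used. Their values are raw UMI counts with no normalization, deposited by the authors, with Cell Ranger 6.0.2 per the file headers; the submitters' processing notes name Cell Ranger 5.0.1 and mm10. The rule by which barcodes were called as cells is not given in the sources used here. Members, gene lists and comparisons were chosen with earlier results of these data known. UMIs were summed per library and class and tested with edgeR 4.0.16 (quasi-likelihood, TMM, filterByExpr, Benjamini-Hochberg adjustment at 0.05, R 4.3.3), with the library as block except between sexes; DESeq2 1.42.0 was an alternative. CPM is per 1e+06 UMIs of a sum. Genes used by the gate were not tested against the other barcodes or in the CD3 split, and were tested between sexes where they passed the filter. Genes named were the 12 largest increases and 8 largest decreases against the other barcodes, up to 12 each way for the CD3 split, both with at least 20 CPM in the higher class, the 5 V segments of each chain in most members, and list genes; between sexes the rule named called genes, and as there were none the 10 lowest p-values were named instead, a choice made after seeing the data; all 249 list genes matched. Of 22399 gene IDs, 22285 occur in GENCODE M21. Doublets were scored against simulated ones, 2 per barcode with 50 neighbours, and removed in an alternative only (7.73% to 8.18% of barcodes, 4 members). On simulated counts, 100 genes had a true 4-fold change. The tests recovered 75% of them for members against other barcodes (6669 genes), 65% between sexes (1886 genes) and 91% for the CD3 split (613 genes). For a 2-fold change they recovered 28%, 16% and 35%. The simulation gave all genes of a comparison the same spread between libraries, with no UMIs gathered in single barcodes. These shares therefore do not measure recovery for genes with a larger spread. The labels do not say whether the replicate numbers pair the sexes. Deviations of same-numbered libraries gave r = 0.0316, which with 2 libraries per sex is a single number and cannot decide this. Shares carry exact (Clopper-Pearson) 95% binomial intervals, and the limit for a count of 0 is 3 counts. Some genes of the lists are not reported here.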

Additional observations from a re-analysis of the deposited data

Results flagged for a closer look

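Over the 4 libraries, 16 values were checked for a library that stands far from the other 3. The values were shares of members, their median depth and CPM of named genes outside the gate. The cut-off is one that normal values pass about 1 time in 20, which does not hold for low counts. A gene with UMIs in 1 library only passes it by construction, so no rate of chance is set beside the result. The cut-off was passed by 4 values, each a CPM in members. Ifng reached 655 CPM, Cd160 328 CPM and Pglyrp2 149 CPM in male 1, whose 8 members hold 33569 UMIs; 22 UMIs of Ifng and 11 of Cd160 lie behind those values. H2-Aa had 8.02 CPM in female 1, which is 1 UMI, and 0 elsewhere.

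The difference between members and other barcodes itself differed by sex for 16 of 7155 genes (edgeR interaction test, adjusted p under 0.05; 347 at an unadjusted p under 0.05). On the log2 scale, male minus female, the neutrophil genes Retnlg, S100a8 and S100a9 gave -11.65, -11.78 and -7.87; all 40 and 109 member UMIs of the first 2 and 305 of 306 of the third lay in the female 2 barcode with neutrophil genes. The histone genes Hist1h2ap, H2ac8, H3c1, H2ac4 and Hist1h2an gave -5.81, -5.89, -6.62, -5.51 and -5.13, with 92.2%, 77.1%, 86.1%, 65.0% and 57.1% of member UMIs in 1 barcode, that of female 2 with basal cell genes. Map1b and Ncam1 gave -3.54 and -9.64, with 149 of 209 and 69 of 86 UMIs in the 5 mixed barcodes. Ier3 and Cxcl2 gave 5.76 and 3.05, with 93.3% and 83.1% of UMIs in 1 barcode. S100a4, Tmem176a and Tmem176b gave -2.11, -2.52 and -2.36. Hbb-bs, a haemoglobin gene, gave -5.75, with 10 UMIs in members and 3028 in the other barcodes. In the other barcodes the 5 erythroid genes, Hbb-bs among them, summed to 17.9, 32.1, 3760 and 9.09 CPM. This sum was highest in male 1 and lowest in male 2. The value of Hbb-bs thus rests on a single library and cannot be read as a difference between sexes. Without the 5 mixed barcodes 7 genes passed, of which Hbb-bs and S100a4 were among the 16; the others were Cd74, Ccl5, Bpifa1, Tnf and Ifi27l2a.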

How the results depend on the processing

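Against the other barcodes, 1826 genes passed, and the count stayed within 1.5 times that under all 14 alternatives, from 1347 (DESeq2) to 2526 (comparison barcodes without Omp and Cyp2g1 limits); without each library in turn it lay between 1422 and 1671, and without the replicate block, that is the pairing by library, it was 2013. RLE scaling gave 612 higher and 1251 lower. In the CD3 split, where 28 genes passed, the count was 44 with no replicate block, 47 with Omp and Cyp2g1 at most 2, 94 with no filter beyond 1 count, and 13 to 63 without 1 library, the lowest without female 1. All 13 were among the 28, as were 16 of the 22 called by DESeq2. Between sexes, where 0 passed, 13 did with a replicate block, although these libraries share only a number, 54 with no filter, 1 with DESeq2, and 0 to 65 without 1 library, with 40 and 19 without female 1 and female 2 and 65 without male 1. Leaving out members of another cell type, an alternative added after seeing the data, gave 2081, 37 and 0. Among named genes, the log2 fold change of Tgfb1 turned to 0.0574 when all Ptprc-positive barcodes were compared, and that of Cxcl2 between sexes to -0.78 without the mixed barcodes. The member share, male minus female, lay between -0.223 and -0.0471 points without 1 library, was -0.110, -0.125, -0.133 and -0.120 with a gate of 3 UMIs, doublets removed, at most 5% mitochondrial UMIs and without mixed barcodes, and was -7.08 points of Ptprc-positive barcodes. Without the library block, Serpinb9, Tyms, Isg15, Retnlg and Hbb-bs lost their call (adjusted p 0.0513 to 0.0624), as did Ctsw in the CD3 split (0.0995); with the replicate block between sexes 8 of the 10 genes named passed. The cause of these differences was not tested. With 8 members in male 1, a gene without UMIs there may be present at a low level.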

Other observations

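Genes of innate lymphoid cells were found outside the gate. Among the 599 other Ptprc-positive barcodes, Il22 had 114 UMIs in 3 barcodes, 2 of them in male 1, and 1 barcode held 104 of these UMIs; all 3 had Il7r. Il5 had 71 UMIs in 2 barcodes of female 2, 70 of them in 1. Gata3 was seen in 9 of these barcodes, 7 of which had Il7r. None of these barcodes had 2 UMIs of CD3 and Nkg7, so the gate left them out by rule. Trdv4 was seen in 7 of the other barcodes. These genes were chosen after their values were seen.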
